A study of Mus musculus with 6 samples.

Results

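Libraries of sorted colon macrophages with a transgene for the transcription factor E4BP4 held lower levels of many hypoxia-responsive RNAs than wild type libraries. Markers of other cell types also differed between these libraries, and their part in the results was not tested. The genes described here are 34 genes of the oxygen-sensing pathway. Of these, 9 encode the subunits of the hypoxia-inducible factors (HIF) and the proteins that sense oxygen and degrade HIF. The other 25 were listed as hypoxia targets outside glycolysis, among them Vegfb, which hypoxia is not known to induce. All 34 were taken by gene symbol from 25124 gene rows, and each of the 34 symbols had 1 row. The RNA-seq libraries came from 3 E4BP4 transgenic samples and 3 wild type samples of colonic lamina propria macrophages from C57BL/6 mice aged 8 weeks. Both groups had drunk 2.0% dextran sulfate sodium (DSS), a polymer that injures the colonic epithelium, for 7 days and plain water for a further 7 days, with collection on day 14. The genotype labels call the transgene macrophage-specific without naming its promoter, and those of transgenic replicates 2 and 3 carry another final digit in the gene name. The titles of all 3 name E4BP4 and were followed. Nothing in the labels states whether each library is a mouse of its own or a pool, and the p-values below therefore cover the spread among these 6 libraries only, which can be technical.

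In cells with enough oxygen, prolyl hydroxylases mark the HIF alpha subunits, the VHL ubiquitin ligase binds the marked protein, and the proteasome destroys it. When oxygen is scarce the alpha subunits escape, pair with ARNT and switch on genes for blood vessel growth, glycolysis, mitophagy and matrix production, together with some of the hydroxylases themselves. The colonic mucosa is a site of steep oxygen gradients that deepen in colitis, and in macrophages HIF also follows inflammatory signals. Because HIF alpha is controlled mainly as a protein, the RNA of its subunits is not a measure of its activity.

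HIF binds a short core, ACGTG or GCGTG, read on either strand, and the stretches below show that core in front of members that fell and of members that were not called. The sequences are from RefSeq promoter windows (GRCm38.p6, the build of mm10), limited to the 250 bases before the start site, and 28 of the 34 members had a window. They are written 5′ to 3′ on the strand of the gene, with each ACGTG or GCGTG match of either strand in capitals. None of the stretches shown overlaps an exon of the GENCODE M21 annotation. The matching stretches of Egln1, Hilpda, Mxi1 and Jmjd6, which fell, overlap such exons and are in the counts below. So do those of Arnt, Higd1a, Ankrd37 and Car9, which were not called. The start site of the window lies 6543 bases from the start of the measured row for Hif1a and 713 bases for Mxi1. The Egln3 stretch is chr12:54204069-54204124 (minus strand), that of P4ha1 is chr10:59323250-59323295 (plus strand), that of P4ha2 is chr11:54100816-54100880 (plus strand), that of Ddit4 is chr10:59951923-59951987 (minus strand) and that of Pdk1 is chr2:71873116-71873180 (plus strand). Those of Egln2 and Cited2, which were not called, are chr7:27166816-27166880 (minus strand) and chr10:17723046-17723110 (plus strand).
Egln3: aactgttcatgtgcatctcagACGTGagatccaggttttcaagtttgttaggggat
P4ha1: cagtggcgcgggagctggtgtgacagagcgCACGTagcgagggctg
P4ha2: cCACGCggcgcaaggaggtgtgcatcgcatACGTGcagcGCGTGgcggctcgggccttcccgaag
Ddit4: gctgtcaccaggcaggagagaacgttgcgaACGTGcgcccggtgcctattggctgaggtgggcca
Pdk1: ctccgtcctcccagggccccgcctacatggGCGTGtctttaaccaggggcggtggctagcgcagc
Egln2: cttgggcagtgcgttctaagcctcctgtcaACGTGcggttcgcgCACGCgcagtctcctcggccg
Cited2: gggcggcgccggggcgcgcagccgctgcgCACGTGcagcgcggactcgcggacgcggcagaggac
In Cited2 the capitals spell CACGTG, the E-box that other factors of the same DNA-binding class also bind, and ACGTG is part of it on both strands. CACGTG stood in the window of 2 of 15 members that fell (13.3%), Hif1a and Bnip3. It stood in 1 of 11 members that were tested and not called (9.09%), and in 8.54% of the windows of all tested genes. ACGTG stood in the window of 11 of 15 members that fell (73.3%) and of 4 of 11 members that were tested and not called (36.4%), against 22.0% of the windows of all 9720 tested genes that had one. GCGTG stood in 10 of the 15 (66.7%) and 6 of the 11 (54.5%), against 44.9% of all tested genes. Among all 1282 tested genes that fell and had a window, ACGTG stood in 24.8% and GCGTG in 44.3%, near the shares of all tested genes. The members were listed by known role and not drawn at random, and whether the core goes with the fall was not tested. The E4BP4 sites TTATGTAA and TTACGTAA were in none of the 28 windows and in 0.566% of those of all tested genes. A match describes these letters only, and most of each gene's regulatory sequence lies outside the window. Vegfa and Car12, which both fell, had neither core in it.

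Of the 34 members 32 were tested, and 18 of them fell and 0 rose in transgenic libraries. The test was limma-trend on log2(TPM + 1), with a Benjamini-Hochberg adjusted p below 0.05. TPM is a read count scaled for transcript length and library depth. Among all 12633 genes tested 13.2% fell and 8.71% rose (1666 and 1100 genes, 21.9% in either direction). With upper-quartile scaling the split of calls moved to 52.0% higher, from 39.8%, with 1425 genes higher and 1315 lower, and 16 members then fell and 1, Zfp395, rose. At an unadjusted p below 0.05, 24 members were lower and 2 were higher, against 20.5% and 14.7% of tested genes. The median log2 fold change was -0.40 over the tested members and -0.01 over all tested genes. Of the members 11 fell by at least 1.5-fold in mean TPM, against 3.42% of tested genes, and 24 lay lower with groups that did not overlap, against 22.3% of tested genes. Zfp395 alone lay higher without overlap, as did 17.1% of tested genes (39.3% in either direction). Hif3a and Stc2 had under 1 TPM in both groups and were not tested, while Adm, Plod2 and Car12 reached 1 TPM in wild type only. Counts that hold these genes are in part fixed by the filter. Car12 is among the 18 and the 11. Adm, Plod2 and Car12 are all among the 24 at an unadjusted p below 0.05 and the 24 without overlap.

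**Figure D1:**
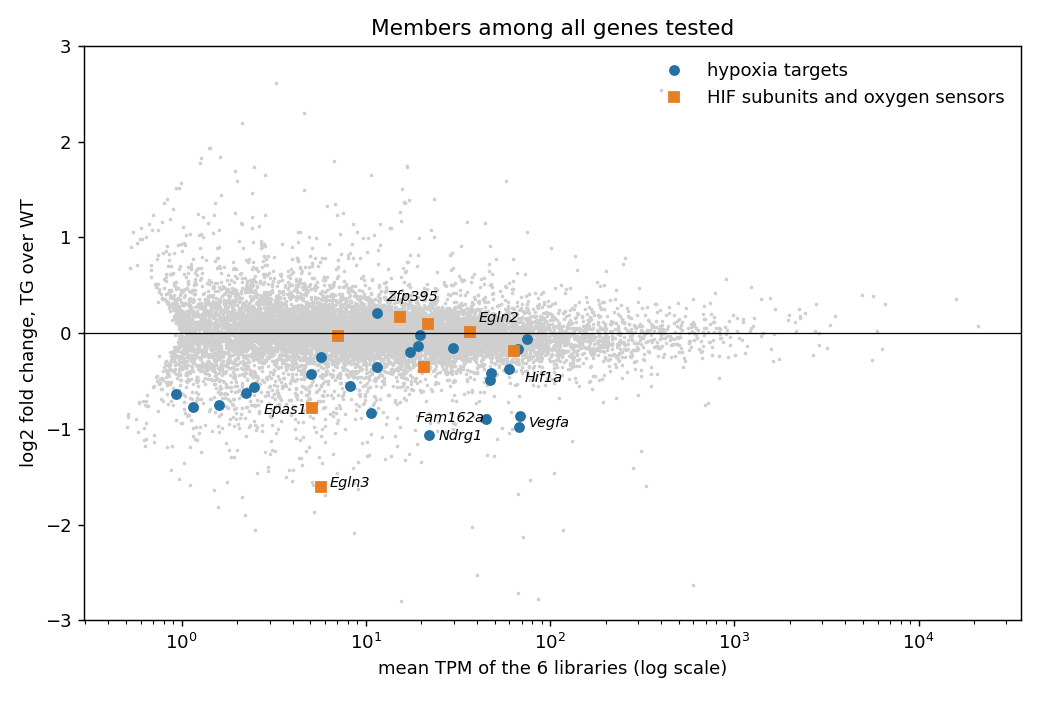
Log2 fold change (transgenic over wild type, vertical axis) against mean TPM of the 6 libraries (horizontal axis, log scale), with grey points for all 12633 tested genes, of which 1 lies outside the axis, and coloured points for the 32 tested members. The targets lie mostly below 0 at low and at high expression levels, and Egln3 is the lowest member.

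The libraries held 13.97 to 15.06 M (1e6) reads in genes, recovered from the deposited TPM. Nfil3, the gene for E4BP4, was at 133, 134 and 141 TPM in transgenic libraries and at 117, 120 and 119 TPM in wild type libraries (log2 fold change 0.19 ± 0.029 SE, adjusted p = 0.00261). Whether that row counts reads of the transgene was not tested. All 12 macrophage markers were well expressed, summing to 19099 to 19183 TPM in transgenic and 19669 to 19902 TPM in wild type libraries, with Lyz2 the largest share. Of these 12, 5 rose, Cd163 by 0.47 on the log2 scale the most, and 5 fell, Cd14 by 0.29 the most. Markers of other cells moved with genotype. Neutrophil markers summed to 516 to 571 TPM in transgenic and 1202 to 1237 TPM in wild type libraries (8 of 11 tested fell, 0 rose). S100a9 and S100a8 had the largest shares, at means of 187 and 154 TPM in transgenic and 439 and 409 TPM in wild type libraries. Csf3r, Cd177 and Padi4 were not called. Epithelial markers summed to 534 to 549 TPM in transgenic and 989 to 996 TPM in wild type libraries (7 of 12 fell, 5 were not called). Car1 had the largest share and the largest gap, at means of 164 TPM in transgenic and 497 TPM in wild type libraries. Muc2 was at 36.1 and 35.9 TPM and Krt18 at 19.5 and 16.8 TPM, and neither was called. Fibroblast and smooth muscle markers summed to 120 to 124 TPM in transgenic and 165 to 167 TPM in wild type libraries (5 of 10 fell), and endothelial markers to 35.2 to 39.2 TPM in transgenic and 55.4 to 60.0 TPM in wild type libraries (7 of 9 fell). Of the endothelial markers that fell, 4 had passed the filter through wild type alone, as had 1 of the fibroblast and smooth muscle markers that fell, so those counts are in part fixed by the filter. Of these lists no marker was at 0 in all libraries. T, NK and innate lymphoid markers summed to 47.1 to 51.5 TPM in transgenic and 35.8 to 38.3 TPM in wild type libraries (3 of 7 rose). Exocrine pancreas markers summed to 63.1 to 63.9 TPM in transgenic and 20.8 to 22.4 TPM in wild type libraries (8 of 8 rose, of which 7 had passed the filter through the transgenic group alone, so that count is largely fixed by the filter), with Ctrb1, Cpa1 and Pnlip at 0 in every wild type library and Prss1 at 0 in all 6. The part of these cells in the results was not tested, and in bulk RNA fewer cells of a type and less RNA per cell cannot be told apart.

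Among the HIF subunits Hif1a and Epas1 fell, Arnt was not called and Hif3a was too low to test. Hif1a, the widely expressed alpha subunit, was at 58.5, 60.3 and 59.2 TPM in transgenic libraries and at 68.7, 67.0 and 67.8 TPM in wild type libraries. The groups did not overlap, and the fall was small (log2 fold change -0.19 ± 0.030 SE, adjusted p = 0.00332). Epas1, which encodes HIF-2 alpha and is known for its high level in endothelium, was at 3.21, 3.72 and 3.44 TPM in transgenic libraries and at 6.60, 7.24 and 6.25 TPM in wild type libraries. Every transgenic library lay below every wild type one, with mean TPM at 0.517 times the wild type mean (log2 fold change -0.79 ± 0.089 SE, adjusted p = 0.000681). The summed endothelial markers were lower in the same libraries (35.2 to 39.2 against 55.4 to 60.0 TPM in wild type). Pecam1 had the largest share of that sum, at means of 24.6 TPM in transgenic and 27.9 TPM in wild type libraries. Of the 9 endothelial markers tested 7 fell, Plvap to 0.376 times its wild type mean, and Vwf and Cldn5 were not called. The Epas1 to Hif1a ratio of TPM within a library, which no scaling of libraries can move, was 0.0550, 0.0617 and 0.0582 in transgenic and 0.0961, 0.108 and 0.0921 in wild type macrophages. It was lower in all 3 transgenic libraries (exact two-sided permutation test, p = 0.10, the smallest that 3 against 3 libraries allow). The gene pairs of this and later ratios were chosen with earlier results known, so these p-values add no support to the single-gene values. Arnt, the partner of both alpha subunits, was at 22.6, 23.2 and 21.8 TPM in transgenic and at 22.0, 20.6 and 20.4 TPM in wild type libraries, and the groups overlapped (log2 fold change 0.10 ± 0.050 SE, adjusted p = 0.215). Hif3a, whose products can oppose the other alpha subunits, rested on 15, 13 and 16 reads in transgenic and 13, 5 and 9 reads in wild type libraries, too few for a difference to be read.

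Of the oxygen sensors and VHL, 2 fell, and Egln3 fell furthest of all members. The EGLN enzymes are the prolyl hydroxylases that mark HIF alpha, and Egln1 and Egln3 are themselves HIF targets. Egln3 (chromosome 12, 54178981 to 54203874, minus strand, mm10) was at 2.88, 2.65 and 1.49 TPM in transgenic libraries and at 9.11, 8.90 and 9.11 TPM in wild type libraries. The wild type libraries were nearly equal and the transgenic ones lay far below them, with replicate 3 the lowest. The difference was 3.86-fold (log2 fold change -1.61 ± 0.16 SE, adjusted p = 0.000345) and rested on 241 reads in transgenic and 908 in wild type libraries. Egln1, the main HIF hydroxylase in most cells, was at 18.2, 15.9 and 20.1 TPM in transgenic libraries and at 24.2, 24.1 and 21.7 TPM in wild type libraries. The groups did not overlap, but transgenic replicate 3 came close to wild type replicate 3 (log2 fold change -0.36 ± 0.085 SE, adjusted p = 0.0214). That call was lost without transgenic replicate 1 or 2 or wild type replicate 1 or 2, with an adjusted p of 0.0512 to 0.0682.

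The third hydroxylase gene and the other sensors were not called. Egln2, which is not known as a hypoxia-induced gene, was at 37.2, 36.4 and 36.9 TPM in transgenic and at 35.3, 36.6 and 37.5 TPM in wild type libraries. The groups overlapped fully (log2 fold change 0.01 ± 0.039 SE, adjusted p = 0.845). Hif1an, which encodes the asparaginyl hydroxylase that keeps HIF from its coactivators, was at 7.87, 7.13 and 6.11 TPM in transgenic and at 7.33, 7.29 and 6.85 TPM in wild type libraries (log2 fold change -0.03 ± 0.094 SE, adjusted p = 0.877). Vhl, the substrate receptor of the ubiquitin ligase, was at 15.0, 16.3 and 17.2 TPM in transgenic and at 15.2, 14.4 and 13.4 TPM in wild type libraries. These groups overlapped by 1 library each (log2 fold change 0.16 ± 0.070 SE, adjusted p = 0.142). Set against Egln2 of the same library, Egln3 was at a ratio of 0.0776, 0.0730 and 0.0405 in transgenic and 0.258, 0.243 and 0.243 in wild type macrophages, and Egln1 at 0.491, 0.438 and 0.545 and at 0.687, 0.658 and 0.579. Both ratios were lower in all transgenic libraries (exact two-sided permutation test, p = 0.10 for each, the smallest possible). As with Epas1 and Hif1a, these pairs were chosen with earlier results known.

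Per transcript length, Hif1a was the most abundant of the 9 regulators in both groups and Egln2 came next. In transgenic macrophages Arnt (22.5 ± 0.71 TPM), Egln1 (18.1 ± 2.1 TPM) and Vhl (16.2 ± 1.1 TPM) followed, and in wild type macrophages Egln1 (23.4 ± 1.4 TPM), Arnt (21.0 ± 0.87 TPM) and Vhl (14.3 ± 0.89 TPM; SD, n = 3 each). In transgenic libraries the means of Egln1 and Vhl differed by less than the SD of Egln1, so their order is not resolved. The lowest places also differed: Hif1an, Epas1 and Egln3 in that order in transgenic macrophages, and Egln3, Hif1an and Epas1 in wild type macrophages (in wild type the means of Hif1an and Epas1 differed by less than the SD of Epas1). Hif3a was the lowest in both.

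**Figure D2:**
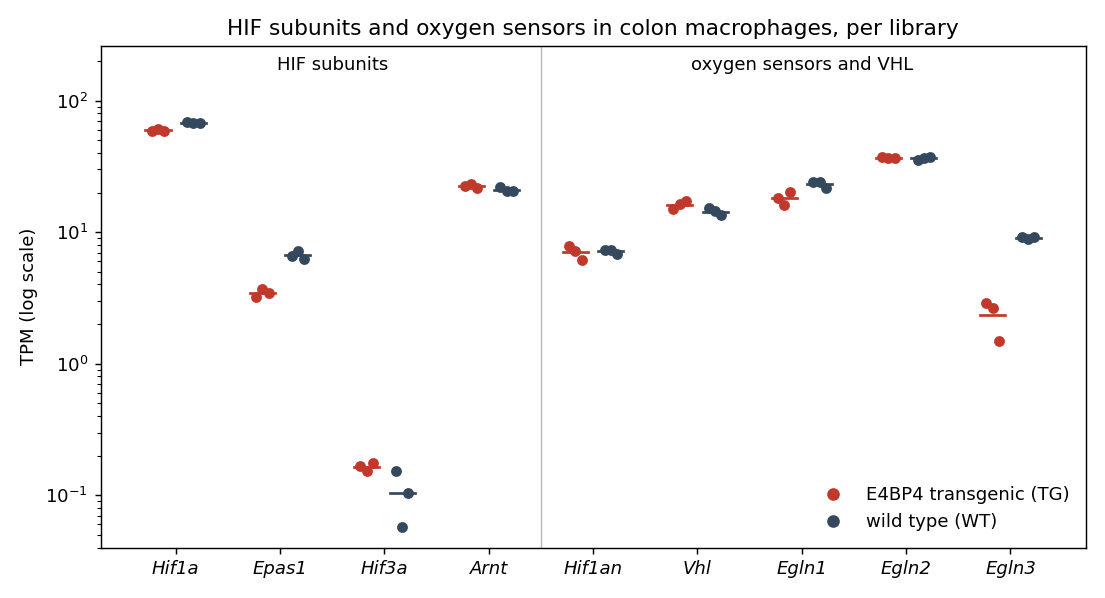
TPM (log scale) of the 4 HIF subunit genes and of the 5 genes for oxygen sensors and VHL in each library, transgenic left of wild type, with points for libraries and short lines for group means. Egln3 and Epas1 show the widest gaps between groups, and the points of Egln2 lie on one level.

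The secreted targets were led by Vegfa, which encodes the growth factor that drives new vessels towards hypoxic tissue. Vegfa (chromosome 17, 46016994 to 46032377, minus strand, mm10) was at 45.4, 45.6 and 45.6 TPM in transgenic libraries and at 93.9, 89.5 and 89.0 TPM in wild type libraries. The transgenic libraries were nearly identical and lay far below the wild type ones, at a ratio of 0.502 (log2 fold change -0.98 ± 0.032 SE, adjusted p = 1.30e-06). Vegfb, a relative that hypoxia is not known to induce, was at 18.1, 18.2 and 18.4 TPM in transgenic and at 21.5, 19.1 and 19.7 TPM in wild type libraries. The groups did not overlap, yet the gap was close to the wild type spread and was not called (log2 fold change -0.13 ± 0.056 SE, adjusted p = 0.133). The Vegfa to Vegfb ratio within a library was 2.51, 2.51 and 2.48 in transgenic and 4.36, 4.69 and 4.53 in wild type macrophages (exact two-sided permutation test, p = 0.10, the smallest possible). Adm, the vasodilator peptide adrenomedullin, had only 17, 3 and 12 reads in transgenic and 43, 30 and 17 reads in wild type libraries. The highest transgenic and the lowest wild type library had equal reads, and its call changed with the method. The adjusted p was 0.0725 in the test used here, 0.0396 without wild type replicate 3, 0.00458 with limma-voom on recovered reads and 0.00969 in the authors' deposited table. Stc2, a secreted glycoprotein, had 60 reads in transgenic and 35 in wild type libraries and was not tested.

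Genes of mitochondria and lipid droplets fell in 4 of 6 cases. Bnip3, a receptor that directs mitochondria to mitophagy, was at 7.28, 8.19 and 6.80 TPM in transgenic libraries and at 13.9, 13.2 and 15.0 TPM in wild type libraries. Its relative Bnip3l, with the same kind of role, was at 19.5, 19.2 and 20.1 TPM in transgenic and at 19.9, 18.8 and 21.0 TPM in wild type libraries. Bnip3 thus fell with a clear gap between groups (log2 fold change -0.84 ± 0.082 SE, adjusted p = 0.000309), while the groups of Bnip3l overlapped fully (log2 fold change -0.02 ± 0.055 SE, adjusted p = 0.831). The Bnip3 to Bnip3l ratio within a library was 0.373, 0.426 and 0.338 in transgenic and 0.698, 0.702 and 0.713 in wild type macrophages (exact two-sided permutation test, p = 0.10, the smallest possible). In GENCODE M21 the exons of Bnip3 share 504 bases with Gm45507 on the opposite strand, and without strand information the reads of the pair cannot be told apart. Fam162a, a mitochondrial protein linked to hypoxic cell death, was at 28.4, 31.0 and 33.2 TPM in transgenic libraries and at 62.3, 57.9 and 55.2 TPM in wild type libraries. Its ratio of 0.528 was close to that of Bnip3, 0.529 (log2 fold change -0.90 ± 0.066 SE, adjusted p = 7.10e-05). Its exons share 168 bases with Wdr5b on the opposite strand, a gene at 2.46 TPM in wild type libraries.

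Pdk1, the kinase that holds pyruvate back from the mitochondrial citric acid cycle, was at 6.71, 6.24 and 6.33 TPM in transgenic and at 9.92, 10.3 and 9.52 TPM in wild type libraries. The groups stood well apart (log2 fold change -0.55 ± 0.066 SE, adjusted p = 0.000915). Hilpda, which inhibits lipolysis in lipid droplets, fell less in ratio, with 51.9 ± 3.2 TPM in transgenic and 67.5 ± 3.1 TPM in wild type libraries (SD, n = 3 each, adjusted p = 0.00213). Higd1a, a protein of the respiratory chain, ranged from 9.17 to 11.1 TPM in transgenic and from 10.3 to 15.1 TPM in wild type libraries. The groups overlapped because of wild type replicate 3. It was not called (adjusted p = 0.10) and was called without that replicate (0.0144), with limma-voom (0.0151) and in the authors' deposited table (0.00166). Its exons share 683 bases with Gm47112 on the opposite strand.

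**Figure D3:**
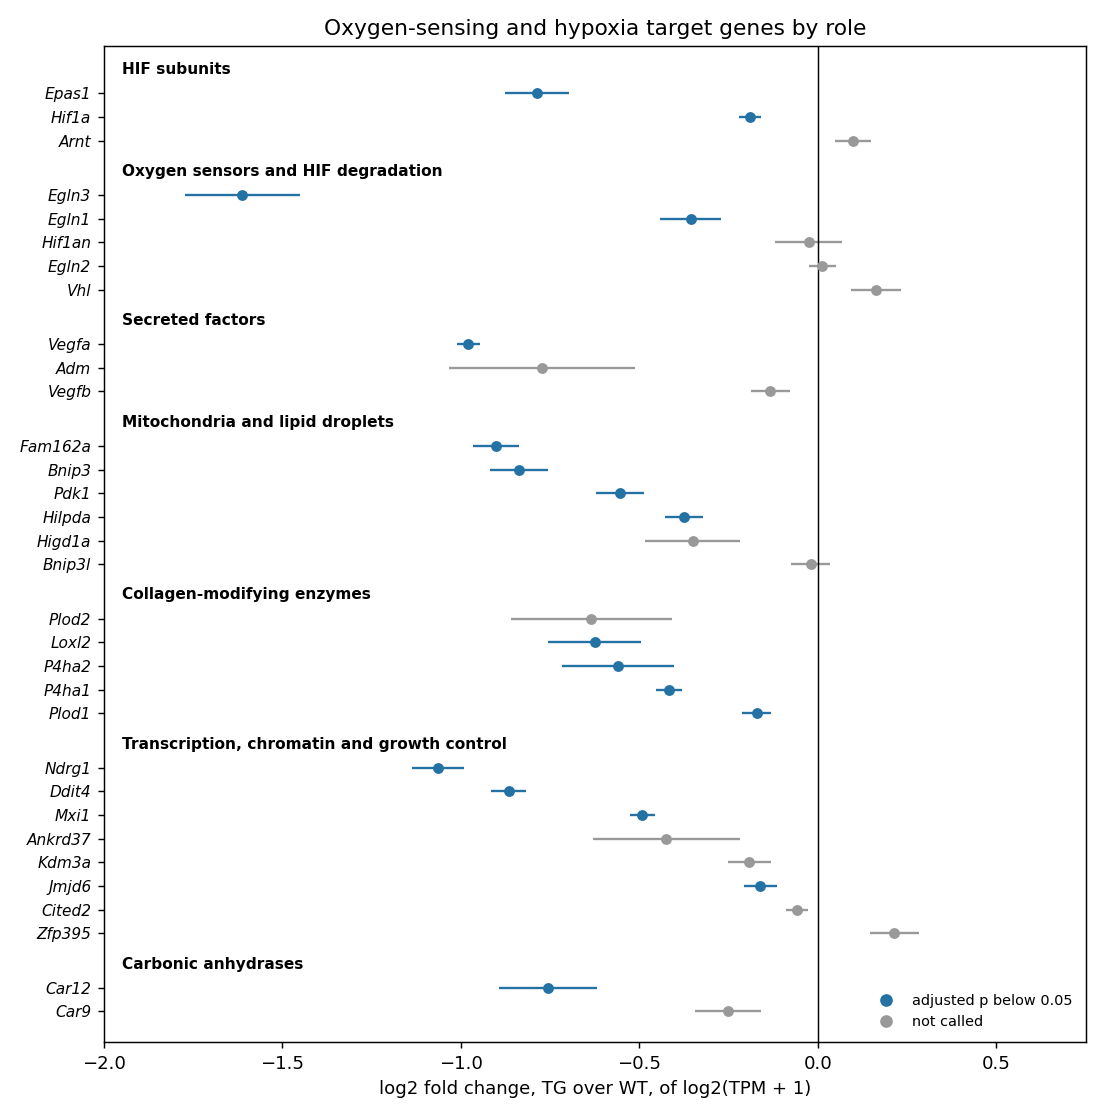
Log2 fold change (transgenic over wild type, horizontal axis, on log2(TPM + 1)) of the 32 tested members, grouped by role, with bars for ± 1 SE of the limma fit. Blue points passed an adjusted p below 0.05 and grey points did not; the 18 blue points all lie below 0, and within most groups called and uncalled genes stand side by side.

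Of the 5 collagen-modifying enzymes 4 fell, from high and from very low levels. P4ha1 and P4ha2 encode the catalytic subunits of collagen prolyl 4-hydroxylase, which stabilises the collagen helix. P4ha1 was at 41.7, 40.6 and 40.5 TPM in transgenic and at 54.0, 56.8 and 54.2 TPM in wild type libraries. Both groups were tight and far apart relative to their spread (log2 fold change -0.42 ± 0.036 SE, adjusted p = 0.000157). P4ha2 was at 1.58, 1.40 and 2.53 TPM in transgenic and at 3.17, 2.91 and 3.31 TPM in wild type libraries, with transgenic replicate 3 nearest to wild type. It was called (adjusted p = 0.0397), but only leaving out transgenic replicate 3 kept the call. Leaving out each other library took the adjusted p to 0.0743 to 0.117, and testing without the filter to 0.0807. The lysyl hydroxylase gene Plod1 averaged 62.9 ± 0.80 TPM in transgenic and 71.0 ± 3.6 TPM in wild type libraries (SD, n = 3 each), a log2 fold change of -0.17 and an adjusted p of 0.0213. Leaving out any library except wild type replicate 1 ended that call (0.0505 to 0.0658), and so did upper-quartile scaling (0.0509).

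Plod2, the lysyl hydroxylase of collagen ends, rested on 33, 12 and 27 reads in transgenic and 50, 41 and 99 reads in wild type libraries and was not called (adjusted p = 0.0850). It was called with limma-voom on recovered reads (log2 fold change -1.41, adjusted p = 0.000547) and in the authors' deposited table (0.00263). Loxl2, an enzyme that crosslinks collagen outside the cell, was at 1.17, 1.73 and 1.78 TPM in transgenic and at 2.99, 2.91 and 2.87 TPM in wild type libraries. The wild type libraries were alike and all above the transgenic ones (log2 fold change -0.63 ± 0.13 SE, adjusted p = 0.0118), on 311 and 568 reads in transgenic and wild type libraries. Of the 10 markers of fibroblasts and smooth muscle, cells that make much of the collagen, 5 fell in the same libraries, Col1a1, Col1a2, Col3a1, Dcn and Pdgfrb, and 5 were not called.

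Of the 8 genes of transcription, chromatin and growth control 4 fell. Ndrg1, a stress-responsive gene known from hypoxic and differentiating cells, was at 15.4, 12.7 and 13.8 TPM in transgenic libraries and at 31.7, 30.1 and 29.1 TPM in wild type libraries. On the scale of log2(TPM + 1) Ndrg1 was the second largest fall of the members (log2 fold change -1.06 ± 0.072 SE, adjusted p = 4.93e-05). In mean TPM the fall was 2.16-fold, between groups that lay far apart. By that measure Car12 (2.43-fold) fell further, as did Plod2 (2.75-fold) and Adm (2.95-fold), which were not called. Ddit4, also called REDD1, which restrains the growth kinase mTOR, was at 49.3, 48.8 and 46.2 TPM in transgenic libraries and at 86.6, 94.7 and 84.5 TPM in wild type libraries. This was 1.84-fold lower with no overlap (log2 fold change -0.87 ± 0.049 SE, adjusted p = 2.11e-05). Mxi1, which opposes MYC at its DNA sites, was at 39.1 ± 0.73 TPM in transgenic and 55.4 ± 1.3 TPM in wild type libraries (SD, n = 3 each, adjusted p = 6.75e-05). Jmjd6, an oxygen-dependent dioxygenase, was at 28.2 ± 1.0 TPM in transgenic and 31.6 ± 1.0 TPM in wild type libraries. Its call (adjusted p = 0.0413) did not survive leaving out a library, whichever it was (0.0517 to 0.129), and it ended too with no filter, upper-quartile or median-of-ratios scaling, limma-voom (0.0524 to 0.0952) and in the authors' deposited table (0.1497).

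The other 4 genes of that group were not called. Kdm3a, an oxygen-dependent histone demethylase, was at 16.1 ± 0.67 TPM in transgenic and 18.5 ± 1.1 TPM in wild type libraries (SD, n = 3 each, adjusted p = 0.0568), and it was called with a minimum of 5 TPM (0.0442) and with limma-voom (0.0236). Cited2, which competes with HIF for its coactivators and so damps the response, was at 73.7, 73.1 and 73.8 TPM in transgenic and at 78.9, 76.2 and 74.8 TPM in wild type libraries, and the groups were adjacent without overlap (adjusted p = 0.223). Ankrd37, a well-known hypoxia marker gene, ranged from 3.08 to 5.09 TPM in transgenic and from 4.26 to 7.71 TPM in wild type libraries (adjusted p = 0.189). It had 145 reads in transgenic and 201 in wild type libraries, and its exons overlap those of Ufsp2, at 27.7 TPM in wild type libraries, by 57 bases on the opposite strand. Zfp395, a zinc finger gene, was higher in every transgenic library, at 12.8, 12.4 and 12.1 TPM against 10.9, 11.2 and 9.66 TPM in wild type libraries, but was not called (log2 fold change 0.21 ± 0.069 SE, adjusted p = 0.0618). It was called with a mean of at least 5 TPM required (0.0499), with upper-quartile or median-of-ratios scaling (0.0388 and 0.0495), with limma-voom (0.00873) and in the authors' deposited table (0.0285).

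The membrane carbonic anhydrases, which face outwards and buffer acid from glycolysis, differed in size of change. Car12 was at 1.07, 0.769 and 0.955 TPM in transgenic and at 2.55, 1.88 and 2.37 TPM in wild type libraries, a 2.43-fold difference without overlap (log2 fold change -0.76 ± 0.14 SE, adjusted p = 0.00656). It rested on 134 and 315 reads in transgenic and wild type libraries and passed the filter through wild type alone, and 7 of 12 epithelial markers fell in the same libraries while 5 were not called. Car9, a classic HIF target, was at 5.44, 4.72 and 5.11 TPM in transgenic and at 6.19, 6.91 and 5.69 TPM in wild type libraries. The groups were close without overlap and it was not called (log2 fold change -0.25 ± 0.092 SE, adjusted p = 0.0915).

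**Figure D4:**
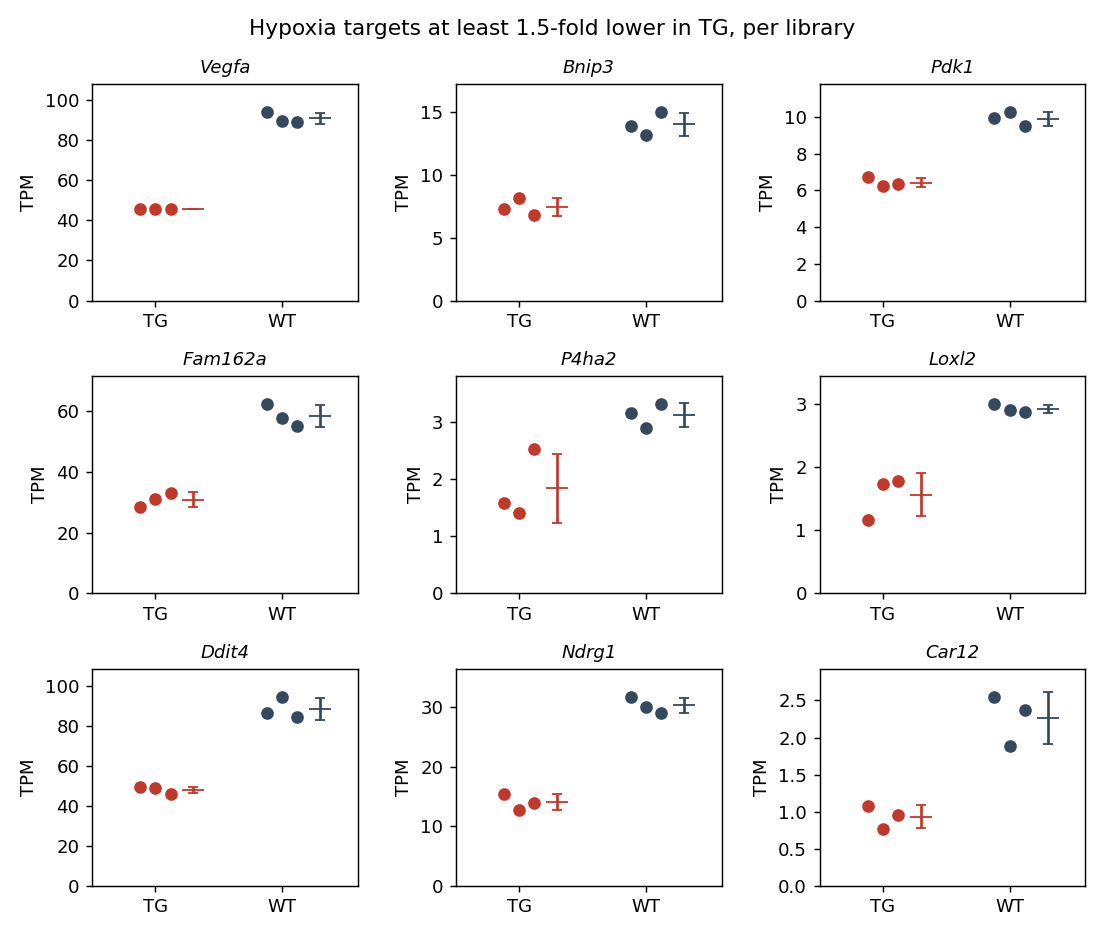
TPM of the 9 targets that fell by at least 1.5-fold, in each library (points) with the group mean ± SD (bars at the right of each group), transgenic left of wild type, on linear axes from 0. In none of the 9 did a transgenic library reach a wild type one, and P4ha2 and Loxl2 show the widest transgenic spread relative to their level.

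Set side by side, 4 of the 8 tested subunit and sensor genes fell, with a median log2 fold change of -0.11, and 14 of the 24 tested targets fell, with a median of -0.46. The summed TPM of the 25 targets was 545, 532 and 545 in transgenic libraries and 768, 765 and 734 in wild type libraries. That of the 9 subunits and sensors was 166 in all transgenic libraries (165.5 to 166.4) and 183 to 189 in wild type libraries. Of the 18 members that fell, 14 kept an adjusted p below 0.05 under each of the 14 alternatives that gave them a value, and the 4 that did not were Egln1, P4ha2, Plod1 and Jmjd6. Exons of Hif1a, Egln2, Plod2, Loxl2, Ndrg1, Mxi1, Jmjd6 and Car9 also overlap those of other genes in GENCODE M21, by 0.13% to 9.29% of the member's exon bases for each such gene.

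The rest of the pathway was read from lists that share no gene with the 34, to be set against 13.2% of all tested genes that fell and 8.71% that rose. Of 13 tested genes for HIF ubiquitination and transcription partners 3 fell and 0 rose, with a median log2 fold change of -0.02. They were Siah2, a ubiquitin ligase that targets prolyl hydroxylases, at 15.8 ± 0.61 TPM in transgenic and 19.6 ± 0.93 TPM in wild type libraries (adjusted p = 0.0085), the HSP90 gene Hsp90ab1, at 747 ± 12.5 and 787 ± 2.0 TPM (0.0128), and Elob, an elongin of the VHL complex, at 100.3 ± 1.4 and 106 ± 1.2 TPM (0.0490; SD, n = 3 each). Of 27 other non-glycolytic targets 10 fell and 2 rose, with a median of -0.14. Ero1l, the oxidase of the endoplasmic reticulum, was at 8.68 ± 0.36 TPM in transgenic and 16.2 ± 0.95 TPM in wild type libraries, and the cytokine gene Mif at 76.7 ± 7.0 and 112 ± 4.9 TPM (SD, n = 3 each). Plaur, the urokinase receptor, and Anxa2, a membrane-binding annexin, fell by 0.29 and 0.27 on the log2 scale. The 2 that rose (7.41% of the 27, below the share of all tested genes) were Cxcr4 and Hmox1, by 0.10 and 0.12. They are named after their values were seen. Among 19 tested glycolytic targets 14 fell and 1, Pfkfb4, rose, with a median of -0.43, near the -0.46 of the non-glycolytic targets described above. The lactate exporter Slc16a3, at 41.3 and 83.3 TPM in transgenic and wild type libraries, and the glucose transporter Slc2a1, at 44.1 and 78.6 TPM, stood at ratios of 0.495 and 0.561, close to those of Vegfa and Ddit4. Ldha and Pkm, of the last steps of glycolysis, fell by 0.45 and 0.56 on the log2 scale.

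The authors' deposited comparison, made on the same 6 libraries in a table whose gene lengths are whole gene spans, introns included, called 21 members lower and 1 higher of 34, against 13.2% and 11.2% of its 20884 genes with a fold change. Of the 18 members that fell here, 17 were called lower there, and Jmjd6 was not. Adm, Higd1a, Plod2 and Cited2 were called lower there and not here. For Egln3 the authors' deposited table gave a log2 fold change of -1.70, for Ndrg1 -1.08, for Vegfa -0.90 and for Hif1a -0.23. The largest gap between the methods was Adm, at -1.59 in the authors' deposited table and -0.77 here, and -1.65 with limma-voom on recovered reads.

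**Figure D5:**
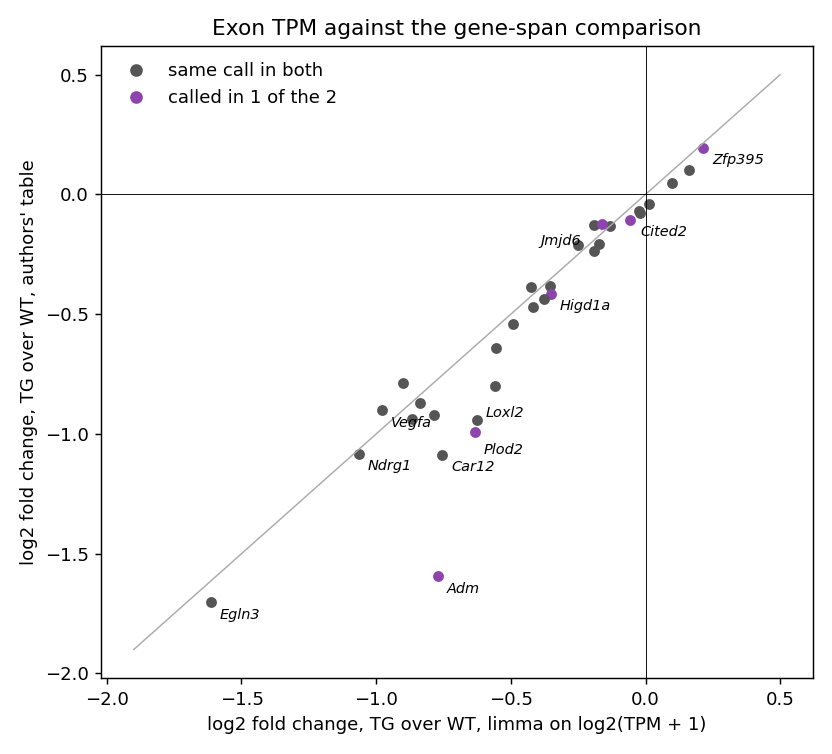
Log2 fold change of the 32 tested members in the authors' deposited table (vertical axis) against limma on log2(TPM + 1) (horizontal axis), both transgenic over wild type, with the line of equality. Purple points were called in 1 of the 2 comparisons, and low-expressed members such as Adm, Plod2, Car12 and Loxl2 lie below the line.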

How the data were processed

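Per the submitters' processing notes, bcl2fastq, STAR, HOMER 4.11.1 and DESeq2 were used on build mm10; the order of steps and their settings are not given. The labels' protocols describe sorted cells, 20 ng of total RNA, poly(A) selection and a library kit not described as keeping strand. The authors deposited TPM per gene row with an exon length (543612 to 545319 TPM per library in sum) and, in a second table, log2 expression values, a log2 fold change, p-values and adjusted p-values. There the length of each row is end less start (100% of 24421 rows), a gene span with introns. Its fold change has the sign of transgenic over wild type for 99.7% of 2677 genes called here.

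A gene was tested if either group averaged 1 TPM or more. The test was limma-trend, with genotype as its sole term and all 6 libraries, on log2(TPM + 1), run in limma 3.58.1 under R 4.3.3 with p adjusted by Benjamini-Hochberg over all genes. Fold changes on that scale understate low genes; ratios are of mean TPM. Dividing the product of TPM and exon length by a constant for each library recovered whole reads (within 0.1 reads) for 99.9% to 100.0% of values up to 1000 reads, and 79.5% to 81.3% of the reads stated in the file headers were in genes. Chi-square over degrees of freedom was 2.06 to 2.75 for library pairs within groups and 15.01 to 15.91 across groups, so no pair agreed within sampling noise. Alternatives covered pseudocount, filter, scaling, limma-voom on recovered reads, a replicate block, the authors' comparison and leaving out each library.

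The members, gene lists, ratios and rules were chosen with earlier results of these data known. All members are named, with values per library for subunits, sensors and each member called at 1.5-fold or more in mean TPM, and up to 4 genes of each pathway list by lowest p. Members outside that rule are shown by library where it helps a comparison. Promoter sequences and GENCODE M21 exons are of GRCm38.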

Additional observations from a re-analysis of the deposited data

How the results depend on the processing

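Counts over all genes were 922 higher and 1451 lower with no filter and 1637 and 2071 with limma-voom, within 1.5 times the 1100 and 1666 reported. The authors' deposited comparison called 2343 and 2756, from more genes. Leaving out 1 library gave 704 to 883 higher and 1231 to 1373 lower, with 704 and 721 higher without transgenic replicate 2 and 3, and 14 to 17 members lower with 0 higher. In the settings that keep all libraries, 16 to 21 members were lower. The count of members higher was 1, Zfp395, with a minimum of 5 TPM, both other scalings, limma-voom and the authors' comparison. Under the minimum of 5 TPM, 27 members had a value. The uncalled log2 fold changes of Hif1an, Egln2 and Bnip3l, all near 0, changed sign, and the cause was not tested. Hif1an was 0.0074 with upper-quartile scaling and -0.0998 to 0.0598 with a library left out. Egln2 was -0.0404 in the authors' deposited comparison and -0.0105 to 0.033 with a library left out. Bnip3l was 0.0158 with upper-quartile scaling and -0.0593 to 0.0181 with a library left out. The median log2 fold change of all genes was -0.01 as reported and 0.02 with upper-quartile scaling. Same-numbered libraries were not correlated in their deviations from the group means (r = -0.0132, -0.043 and 0.032), so the numbers were not taken as pairs; with a replicate block 922 genes were higher, 1457 lower and 17 members lower, Jmjd6 being lost. Depth limits Hif3a, Stc2, Adm and Plod2, which rest on few reads.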

Other observations

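Ak4, a mitochondrial adenylate kinase known as a HIF target, fell below the filter of 1 TPM in both groups and so is in none of the counts. It is named after its value was seen. It was at 0.015, 0.132 and 0.076 TPM in transgenic libraries and at 0.922, 0.933 and 0.968 TPM in wild type libraries, from 14 and 175 reads. With no filter the log2 fold change on log2(TPM + 1) was -0.85 (limma adjusted p = 0.00054), and the authors' deposited table gave -2.17 (adjusted p = 2.39e-09). The vasoconstrictor gene Edn1, of the same list, was at 1.86 ± 0.34 TPM in transgenic and 4.21 ± 0.43 TPM in wild type libraries (SD, n = 3 each; limma adjusted p = 0.00214), and it too is named after its value was seen.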
